A study of Rattus norvegicus with 6 samples.

Results

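The paired microRNAs (miRNAs) miR-103 and miR-107 were examined in exosomes from rat serum. Members were chosen by name, as rno-miR-103-3p, rno-miR-107-3p and rno-miR-107-5p. The first 2 were among the 867 sequences in the count table, and rno-miR-107-5p was not listed there and was not analysed here. Small RNA of circulating exosomes, the small vesicles that cells release into blood, was sequenced from male Sprague-Dawley rats aged 6 to 8 weeks on a normal diet. The NXT-Exo group received Naoxintong Capsule (NXT, a Chinese polyherbal preparation) by gavage at 1000 mg/kg/d, and the Ctl-Exo group received saline at 5 mL/kg/d. There were 5 NXT-Exo libraries and 1 Ctl-Exo library, the one numbered 5. Sample titles state 7 days of dosing throughout. The paper likewise states 7 days of gavage for both groups. The treatment field instead runs from 7 to 11 days over the NXT-Exo libraries in order of their numbers, with 11 days in Ctl-Exo 5. A difference in dosing time within NXT-Exo rests on that field alone.

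Each group had 10 rats. Whether a library held serum of 1 rat or of several was not stated. The paper gives a total volume of centrifuged serum and says that the exosomes were aliquoted, so pooled serum is possible. The spread between NXT-Exo libraries, on which every SD and p-value below rests, may therefore be technical in part or in whole. Columns named for 4 further control libraries, Ctl-Exo 1 to 4, had no sample record to match and were not used here, so Ctl-Exo rests on 1 library, which was assumed to vary like the NXT-Exo ones in every p-value below. NXT-Exo libraries held 1168686 to 3781718 listed reads and Ctl-Exo 5 held 1890463. Levels are reads per 1000000 listed reads (CPM) after scaling with TMM factors, which correct each library's total for its most uneven miRNAs and ran from 0.932 to 1.095. A single read amounted to between 0.261 and 0.782 CPM across NXT-Exo, against 0.544 CPM for the control. Fewer vesicles from 1 source and less miRNA per vesicle cannot be told apart in such levels.

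miR-103 and miR-107 are paralogous miRNAs whose hairpins lie in introns of the pantothenate kinase genes, which encode the enzymes that start coenzyme A synthesis. A miRNA guides Argonaute to messenger RNAs that pair with its seed, bases 2 to 8. In liver and fat, both miRNAs are known to lower insulin sensitivity, with caveolin-1 as a target, and they also repress Dicer, the enzyme that matures miRNAs. miR-103 is often used as a reference miRNA when serum is measured by PCR.

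The mature sequences are shown because the pair differs at a single base, on which every separate value of the 2 members rests. They are written 5′ to 3′ from RefSeq (GRCr8) with the seed in capitals, and the deposited sequences of both members were identical to them.
rno-miR-103-3p: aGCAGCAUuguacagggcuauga
rno-miR-107-3p: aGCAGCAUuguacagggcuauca
rno-miR-16-5p: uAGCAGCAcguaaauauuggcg
rno-miR-15b-5p: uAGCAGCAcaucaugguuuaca
rno-miR-503-5p: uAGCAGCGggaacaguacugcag
Counted from the 5′ end, the members differ by G22C alone (the base of rno-miR-103-3p first) and share their first 21 of 23 bases, the whole seed included. The last 3 are from the miR-15 group, in which the letters AGCAGC lie 1 base further from the 5′ end and the seed is therefore another.

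The 3 hairpins in RefSeq show where the difference lies in the genome. The 3p arm is in capitals, the sequence is that of the RNA, and coordinates are GRCr8.
Mir103a1, chr10:20748474-20748559, plus strand, within Pank3: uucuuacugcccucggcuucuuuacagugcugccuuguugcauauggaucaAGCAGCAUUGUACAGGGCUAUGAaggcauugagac
Mir103a2, chr3:138963227-138963312, plus strand, within Pank2: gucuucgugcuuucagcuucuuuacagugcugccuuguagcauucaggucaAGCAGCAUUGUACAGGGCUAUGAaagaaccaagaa
Mir107, chr1:241750418-241750504, minus strand, within Pank1: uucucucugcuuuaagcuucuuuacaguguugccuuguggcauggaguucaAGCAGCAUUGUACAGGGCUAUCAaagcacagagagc
In each, the mature sequence took up positions 52 to 74. Both Mir103 hairpins hold the same mature sequence, so reads of rno-miR-103-3p cannot be divided between Pank3 and Pank2, whereas those of rno-miR-107-3p have Pank1 as their only host among the 3.

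To ask whether the exosomal level of either miRNA differed after NXT, the libraries were compared one by one. Both were lower in every NXT-Exo library than in Ctl-Exo 5, by a small margin that did not pass the test. rno-miR-103-3p was at 640, 759, 864, 774 and 794 CPM in NXT-Exo 1 to 5 and at 867 CPM in Ctl-Exo 5, from 1921, 2520, 1921, 990, 3045 and 1592 reads. The groups did not overlap, although NXT-Exo 3 came within 4 CPM of Ctl-Exo 5 and inside the counting interval of that library, 825 to 910 CPM (Wilson, 95%, counting error only). The NXT-Exo mean was 766 ± 80.9 CPM (SD, n = 5), which was 0.884 times Ctl-Exo 5.

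rno-miR-107-3p was at 145, 158, 157, 184 and 160 CPM in NXT-Exo 1 to 5 and at 195 CPM in Ctl-Exo 5, from 434, 524, 350, 235, 612 and 358 reads. Here too Ctl-Exo 5 was above every NXT-Exo library. NXT-Exo 4, the next highest, lay inside its counting interval of 176 to 216 CPM and the other 4 lay below it. The NXT-Exo mean was 161 ± 14.2 CPM (SD, n = 5), or 0.824 times Ctl-Exo 5.

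**Figure D1:**
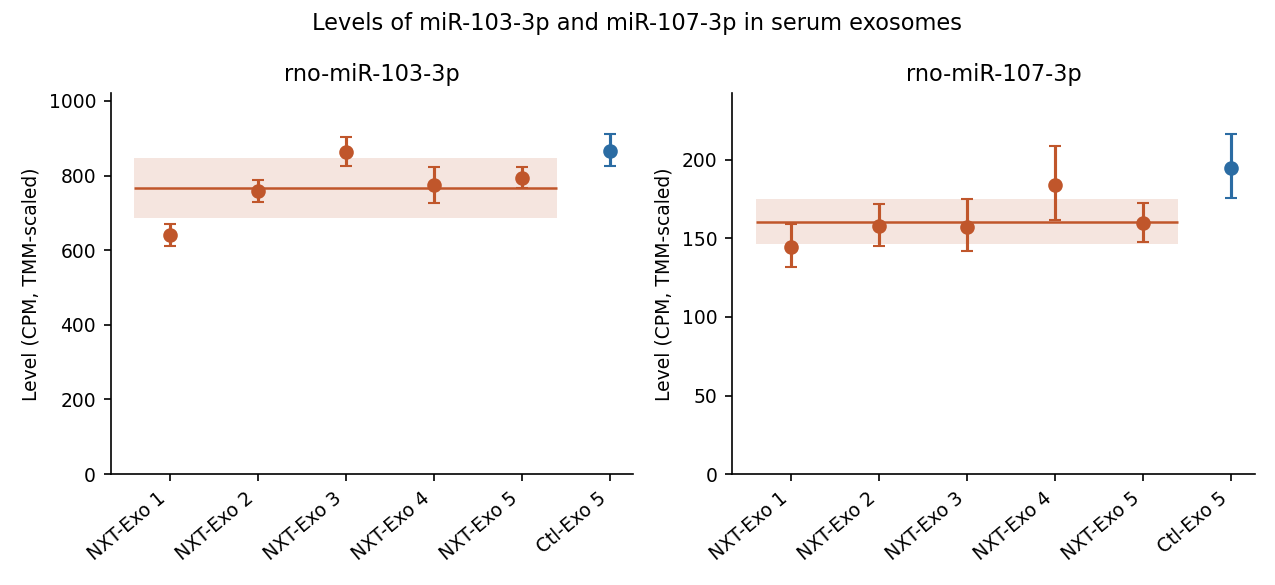
Level (CPM) of rno-miR-103-3p and rno-miR-107-3p in each of the 5 NXT-Exo libraries and in Ctl-Exo 5, with 95% Wilson intervals for counting error as bars and the NXT-Exo mean ± SD as line and band. Every NXT-Exo point lies below Ctl-Exo 5, by as little as 864 against 867 CPM for rno-miR-103-3p in NXT-Exo 3.

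By edgeR's quasi-likelihood test, the log2 fold change of NXT-Exo over Ctl-Exo was -0.18 (SE 0.22) for rno-miR-103-3p, with an adjusted p of 0.815. For rno-miR-107-3p it was -0.28 (SE 0.25), also with an adjusted p of 0.815. The 95% intervals of the fold ran from 0.646 to 1.21 and from 0.576 to 1.18, and both held a fold of 1. An exact two-sided permutation test over the 6 libraries gave p = 0.333 and p = 0.167, the second being the smallest that 5 against 1 allows. Across all 865 miRNAs with reads, 0% passed an adjusted p of 0.05 (0 by edgeR and 0 by DESeq2, with 46 and 33 at an unadjusted p under 0.05). The lowest adjusted p was 0.301.

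That both members were lower in 5 of 5 NXT-Exo libraries has to be read against the table as a whole. The same order was found for 15.3% of all miRNAs with reads and for 15.8% of the 467 averaging 10 reads or more. It also depended on the scaling. With DESeq2's size factors the order was kept for both members, whereas with the listed total or with the deposited TPM values NXT-Exo 4 passed Ctl-Exo 5 for both, at 847 against 842 CPM of the listed total for rno-miR-103-3p and 201 against 189 CPM for rno-miR-107-3p.

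**Figure D2:**
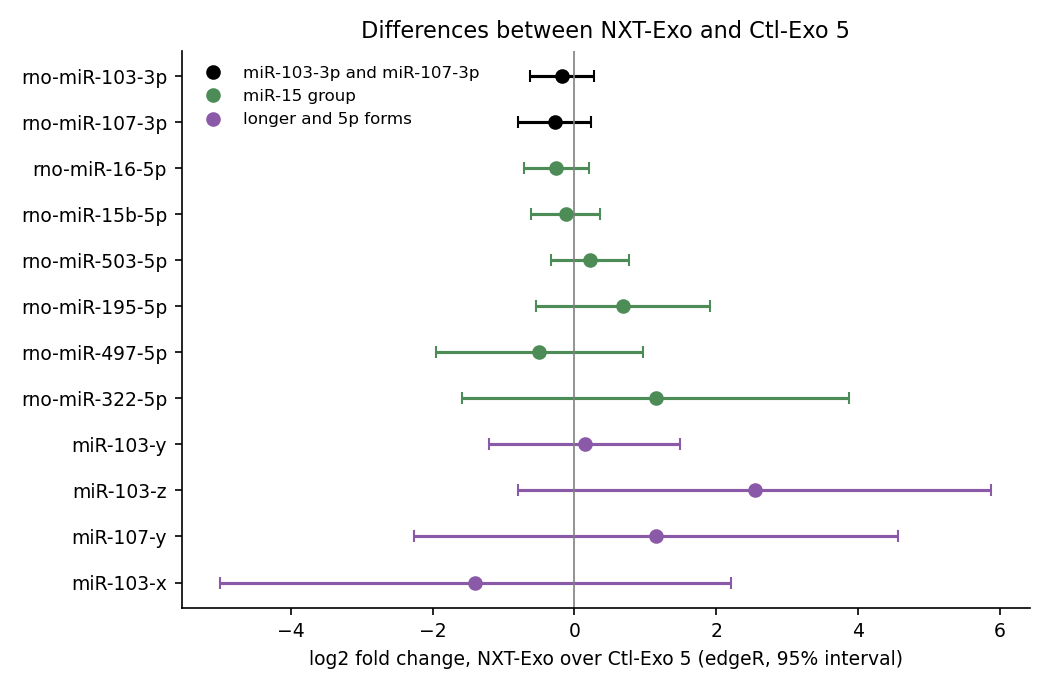
Log2 fold change of NXT-Exo over Ctl-Exo from edgeR with its 95% interval, for the 2 members, their longer forms, the 5p arm and the miR-15 group. The intervals of rno-miR-103-3p and rno-miR-107-3p are narrow and span 0, and rno-miR-15a-5p is left out because Ctl-Exo 5 held 0 reads of it.

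Within the pair, rno-miR-103-3p was the more abundant in every library. Over the 6 libraries it had 11989 reads and rno-miR-107-3p had 2513, or 0.0770% and 0.0161% of all listed reads. The first exceeded the second 4.21 to 5.49-fold within a library, in 6 of 6 libraries (exact sign-flip permutation test, two-sided p = 0.0313, the smallest possible). Among all listed sequences they ranked 78 and 141 by mean level. Both have the same length and differ by 1 base near the 3′ end, so a read that stops before position 22 could belong to either, and how such reads were assigned was not given in the sources used here.

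The share of rno-miR-107-3p in the reads of the pair differed little between the groups. It was 18.4%, 17.2%, 15.4%, 19.2% and 16.7% in NXT-Exo 1 to 5, and 18.4% in Ctl-Exo 5 (Wilson interval 16.7 to 20.1%). Ctl-Exo 5 lay inside the NXT-Exo range. The NXT-Exo mean was 17.4 ± 1.47% (SD, n = 5), a difference of -0.964 percentage points (exact permutation test, two-sided p = 0.833). Since this share is formed within a library, no scaling factor enters it.

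**Figure D3:**
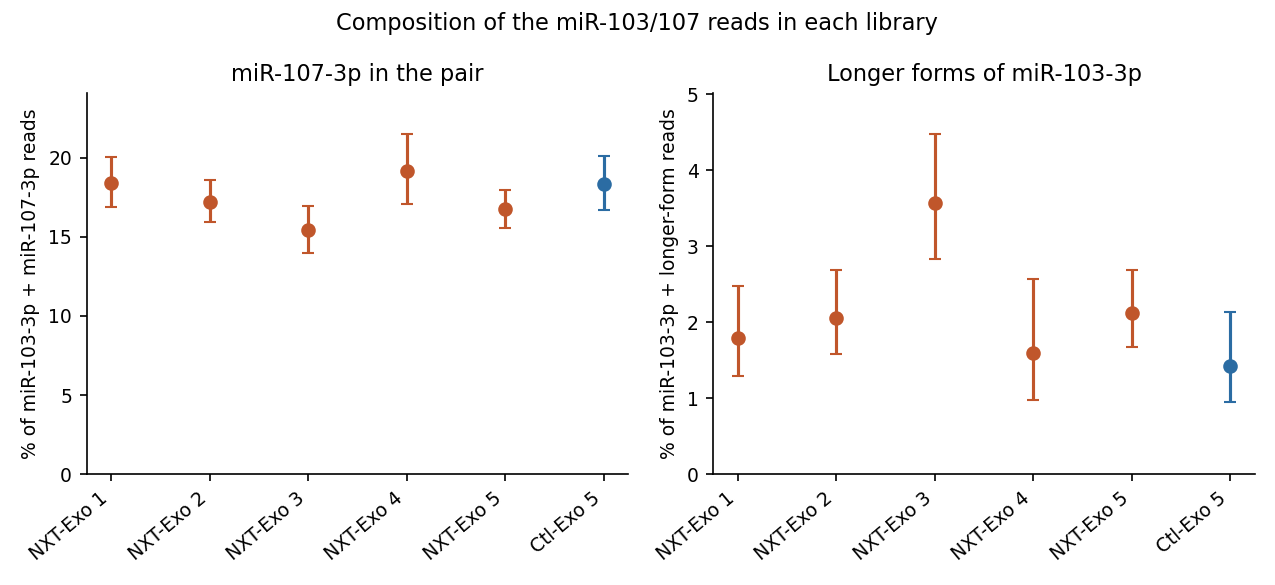
Left, percentage of the pair's reads that were rno-miR-107-3p, and right, percentage of longer forms among reads that begin with the whole rno-miR-103-3p sequence, in each library with 95% Wilson intervals. Ctl-Exo 5 sits inside the NXT-Exo range on the left and below all 5 NXT-Exo libraries on the right, where NXT-Exo 3 stands highest at 3.56%.

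Besides the mature forms, the table listed 3 sequences of 25 bases that begin with the whole of rno-miR-103-3p. They are shown as deposited, with T for U and the bases beyond the mature 3′ end in capitals, because their names and their letters differ in one case.
miR-103-y: agcagcattgtacagggctatgaAT
miR-103-z: agcagcattgtacagggctatgaGT
miR-107-y: agcagcattgtacagggctatgaCT
miR-107-y carries the name of miR-107 but has the rno-miR-103-3p base at position 22, and 21 of its 25 bases match Mir107 from the first base on, against 23 for both Mir103 hairpins. miR-103-y matched both Mir103 hairpins for 24 bases and miR-103-z for 23, so that each ended in 1 or 2 bases that these hairpins do not hold.

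The 3 longer forms together had 264 reads. miR-103-y, the most abundant, was at 7.33, 11.1, 23.4, 7.04 and 11.0 CPM in NXT-Exo 1 to 5 and at 10.9 CPM in Ctl-Exo 5. NXT-Exo 3 was far above the other libraries and Ctl-Exo 5 was among them. miR-103-z was at 2.00, 3.01, 3.15, 3.91 and 4.96 CPM in NXT-Exo against 0.544 CPM, from 1 read, in Ctl-Exo 5. That single read sets its ratio of 6.25, whose counting interval ran from 1.10 to 35.4, and its adjusted p by edgeR was 0.815. Of all miRNAs with reads, 11.4% were likewise at least 2-fold apart while Ctl-Exo 5 lay beyond every NXT-Exo value. miR-107-y had 2 to 12 reads per NXT-Exo library and 2 in Ctl-Exo 5, a ratio of 2.28 with a counting interval of 0.625 to 8.31.

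Per 100 reads that begin with rno-miR-103-3p, longer forms made up 1.79, 2.06, 3.56, 1.59 and 2.12 in NXT-Exo 1 to 5 and 1.42 in Ctl-Exo 5 (Wilson interval 0.951 to 2.13). All 5 NXT-Exo values were higher than that, although 4 of 5 lay inside its counting interval. The mean was 2.23 ± 0.778 (SD, n = 5; exact permutation test, two-sided p = 0.333). Per 100 mature reads, the measure used below for other miRNAs, the values were 1.82, 2.10, 3.70, 1.62 and 2.17 in NXT-Exo 1 to 5 against 1.44. Among those other miRNAs the order depended on how it was summarised. Over 59 other rat miRNAs that had a longer listed form and averaged 100 reads or more, the median number of longer reads per 100 mature reads was 1.78, 2.72, 2.92, 2.08 and 2.59 in NXT-Exo against 1.68 in Ctl-Exo 5. By this median Ctl-Exo 5 was again the lowest. Pooled over all 85 miRNAs with a longer form it was not, at 3.55 per 100 mature reads against 3.38, 3.96, 4.34, 3.14 and 4.07 in NXT-Exo 1 to 5. The part of such differences between libraries in the values of rno-miR-103-3p was not tested.

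The opposite arm of the Mir103a2 hairpin was nearly absent. miR-103-x, agcuucuuuacagugcugccu, is found in the Mir103a2 hairpin only and is the passenger strand that is usually degraded. Its reads numbered 4, 2, 0, 4 and 5 in NXT-Exo against 6 in Ctl-Exo 5. For each of its reads, 571 of rno-miR-103-3p were counted, and those can come from either Mir103 hairpin. The ratio is therefore not that of the arms of 1 hairpin. miR-103-x was at 1.33, 0.602, 0, 3.13 and 1.30 CPM in NXT-Exo 1 to 5 and at 3.27 CPM in Ctl-Exo 5. All 5 NXT-Exo values were lower under TMM, an order found for 15.3% of all miRNAs with reads. With so few reads, and NXT-Exo 4 so close to Ctl-Exo 5, that order can turn on the scaling. The fold change by edgeR had an adjusted p of 0.815.

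How much the pair varied between libraries bears on its use as a reference. The SD of log2(CPM + 1) over the 5 NXT-Exo libraries was 0.158 for rno-miR-103-3p and 0.123 for rno-miR-107-3p, against a median of 0.320 over the 467 miRNAs averaging 10 reads or more. As the SD falls with level, the fairer comparison is with miRNAs within 2-fold of the same level. There rno-miR-103-3p had a lower SD than most, with 14 of 41 lower still and a median of 0.218, and rno-miR-107-3p had 7 of 72 lower and a median of 0.225. As a coefficient of variation, the spread was 10.6% and 8.84%.

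Against 10 other miRNAs often used as references in serum, the pair was among the steadier ones. rno-miR-361-5p had an SD of 0.129, rno-miR-423-3p and rno-miR-425-5p of 0.130 each, rno-miR-93-5p of 0.158 and rno-miR-16-5p of 0.159. rno-miR-191a-5p, rno-let-7a-5p and rno-miR-423-5p varied more, at 0.348, 0.328 and 0.310. None of the 10 passed the test between groups (median log2 difference -0.15, against 0.16 over all miRNAs with reads and 0.03 over those averaging 10 reads or more), and 4 of them, rno-miR-16-5p, rno-miR-191a-5p, rno-miR-425-5p and rno-miR-361-5p, were lower in all 5 NXT-Exo libraries than in Ctl-Exo 5, an order found for 15.8% of miRNAs averaging 10 reads or more. With the listed total that order was kept by rno-miR-361-5p but not by the other 3, and with DESeq2's size factors rno-miR-191a-5p lost it.

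**Figure D4:**
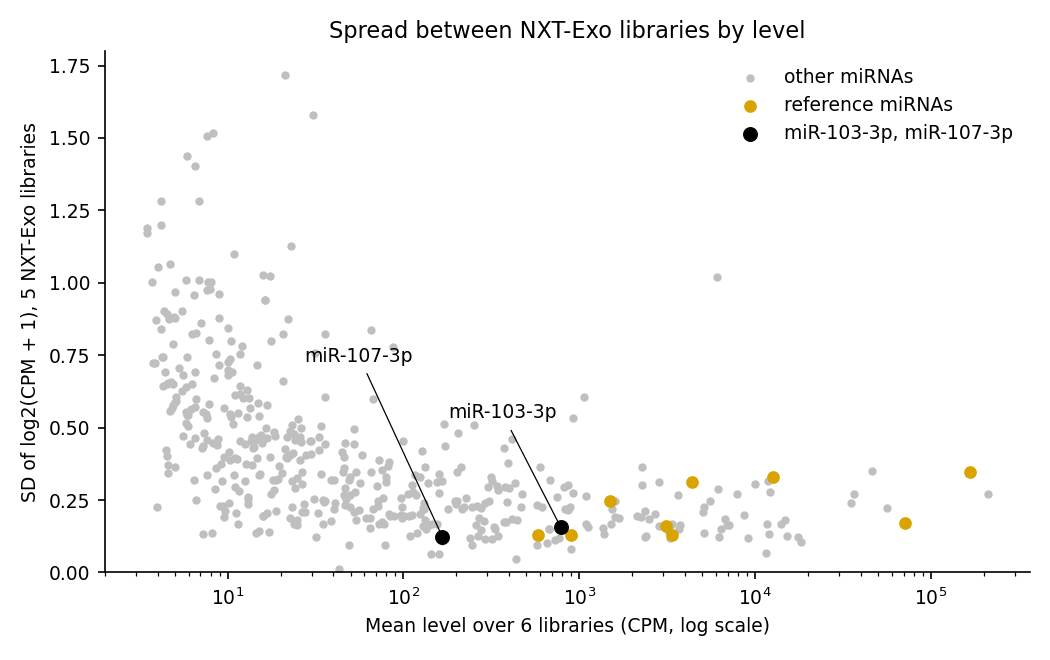
SD of log2(CPM + 1) over the 5 NXT-Exo libraries against the mean level in CPM (log axis) for the 467 miRNAs averaging 10 reads or more. rno-miR-103-3p (0.158) and rno-miR-107-3p (0.123) lie in the lower part of the cloud at their level, close to several reference miRNAs.

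Other miRNAs with the most constant ratio to each member were then sought, as a description over 6 libraries that share their scaling. The log2 ratio of rno-miR-26a-5p to rno-miR-103-3p had an SD of 0.044, the lowest of 466, followed by rno-miR-1839-5p (0.062), rno-miR-15b-3p (0.072), rno-miR-30c-5p (0.087) and miR-505-y (0.095), where the median was 0.374. For rno-miR-107-3p, the lowest were rno-let-7g-5p (0.054), rno-miR-16-5p (0.061), rno-miR-142-5p (0.068), rno-miR-30a-3p (0.071) and rno-miR-185-5p (0.072), where the median was 0.381. The members were not each other's closest match: their ratio had an SD of 0.139, which placed rno-miR-107-3p 21st for rno-miR-103-3p and rno-miR-103-3p 20th for rno-miR-107-3p. The libraries that set them apart were NXT-Exo 3, high for rno-miR-103-3p, and NXT-Exo 4, high for rno-miR-107-3p.

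**Figure D5:**
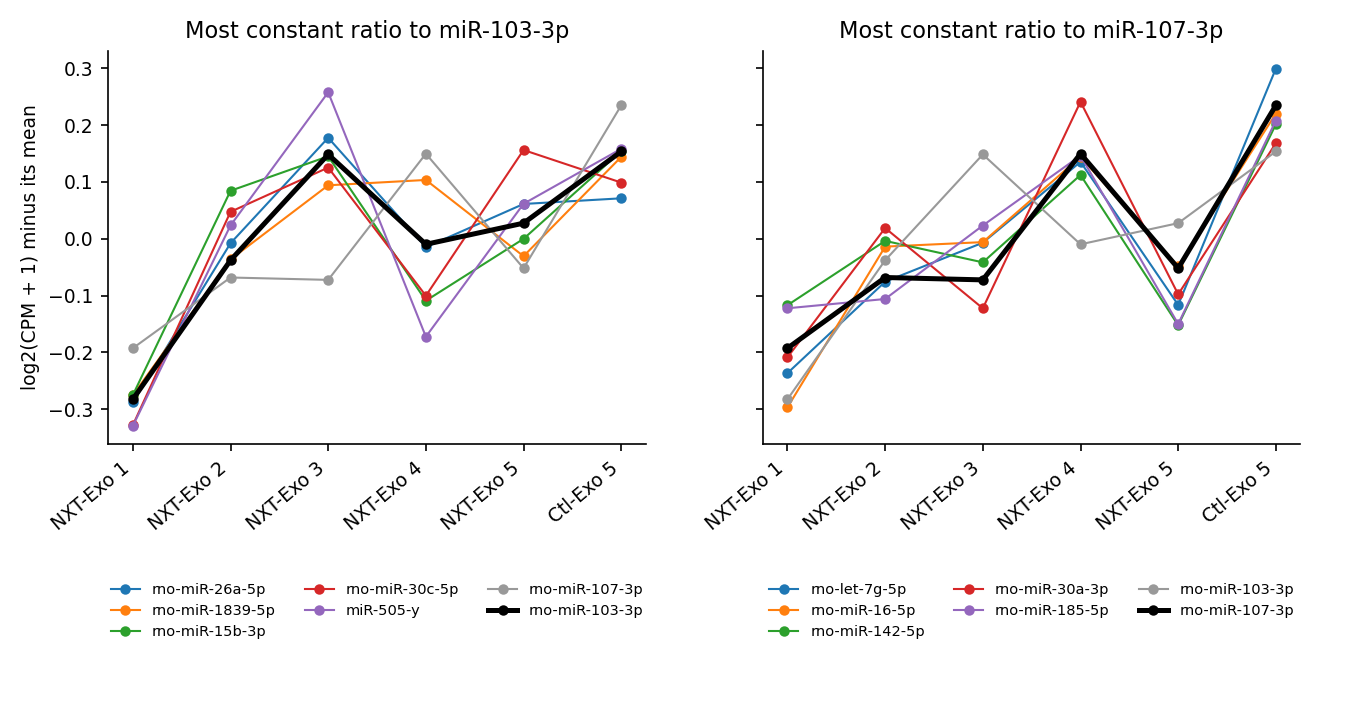
Log2(CPM + 1) minus its mean over the 6 libraries, for rno-miR-103-3p (left) and rno-miR-107-3p (right) with the other member in grey and the 5 miRNAs of the most constant ratio in colour; lines only join the points of 1 miRNA. The black and grey lines part at NXT-Exo 3 and NXT-Exo 4, while rno-miR-26a-5p stays close to rno-miR-103-3p and rno-let-7g-5p to rno-miR-107-3p.

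For a target, the summed level of a seed counts. In all, 5 listed sequences shared the seed GCAGCAU, and the 2 members made up 97.0 to 98.8% of their summed level. Their sum was 797 to 1053 CPM in NXT-Exo (945 ± 93.6, SD, n = 5) and 1074 CPM in Ctl-Exo 5. The seed AGCAGCA of miR-16 was more abundant, with 10 sequences that summed to 3097 to 4287 CPM in NXT-Exo (3817 ± 438, SD, n = 5) and 4454 CPM in Ctl-Exo 5. In both sums Ctl-Exo 5 was above all 5 NXT-Exo libraries with TMM and with DESeq2's size factors. With the listed total NXT-Exo 4 passed it, at 1062 against 1044 CPM for GCAGCAU and 4692 against 4327 CPM for AGCAGCA. Of single miRNAs with reads, 15.3% had the TMM order. The 2 most abundant sequences of AGCAGCA made up 97.6 to 98.8% of its sum, so both sums largely repeat the values of single miRNAs.

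The miR-15 group, which is known to restrain the cell cycle and shares AGCAGC with the pair, had 7 of 8 members with reads, and none passed the test (0 of 7, median log2 difference 0.22). rno-miR-16-5p, its main member and abundant in red blood cells, was at 3006 ± 322 CPM (SD, n = 5) in NXT-Exo against 3593 CPM in Ctl-Exo 5, a log2 fold change of -0.26 that had an adjusted p of 0.815 by edgeR. rno-miR-15b-5p was at 739 ± 120 CPM and 806 CPM. rno-miR-503-5p, close to rno-miR-107-3p in level, lay on the other side, at 158 ± 18.5 CPM in NXT-Exo against 136 CPM in Ctl-Exo 5. All 5 NXT-Exo values were above the control under TMM, and 4 of 5 under DESeq2's size factors or the listed total. How many of all miRNAs were above the control in all 5 was not counted. rno-miR-15a-5p had 11, 16, 1, 2 and 24 reads in NXT-Exo against 0 in Ctl-Exo 5. Its NXT-Exo mean of 3.35 CPM was 2.05 times a floor of 3 reads, or 1.63 CPM, in Ctl-Exo 5. NXT-Exo 3 and 4, at 0.450 and 1.56 CPM, lay below that floor, and the counting interval of Ctl-Exo 5 reached 2.09 CPM. Of all miRNAs with reads, 11.4% were likewise at least 2-fold apart with Ctl-Exo 5 beyond every NXT-Exo value. rno-miR-15a-5p was listed with 19 bases. A longer sequence that begins with it, miR-15-x, was at 14.7 to 35.5 CPM in NXT-Exo against 19.6 CPM in Ctl-Exo 5.

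Among 20 other miRNAs known for insulin, glucose or lipid metabolism, 19 had reads and none passed the test (0 of 19). Their median log2 difference was -0.13, against 0.16 over all miRNAs with reads and 0.03 over those averaging 10 reads or more. The 2 at an unadjusted p under 0.05 by edgeR, against 46 of all 865 miRNAs with reads, were higher in NXT-Exo. rno-miR-375-3p is a miRNA of pancreatic islets that limits insulin secretion. It was at 822, 881, 786, 735 and 895 CPM in NXT-Exo against 516 CPM in Ctl-Exo 5. All 5 values were above Ctl-Exo 5, an order whose share over all miRNAs was not counted. The log2 fold change of rno-miR-375-3p was 0.68 (SE 0.23), with an adjusted p of 0.815 by edgeR. rno-miR-122-5p, the main miRNA of hepatocytes, was at 17384, 3294, 3711, 3372 and 6430 CPM in NXT-Exo against 2195 CPM in Ctl-Exo 5, with a log2 fold change of 1.64 (SE 0.58) and an adjusted p of 0.815. NXT-Exo 1 stood apart for rno-miR-122-5p and, under TMM, was the lowest library for both members. Without it, the NXT-Exo mean of rno-miR-122-5p was 4202 CPM, or 1.91 times Ctl-Exo 5 where all 5 libraries gave 3.11 times, and without NXT-Exo 2 its adjusted p by edgeR was 0.0315. Other abundant members of the list were rno-miR-27b-3p (13935 ± 1638 against 14375 CPM), rno-miR-143-3p (9628 ± 1983 against 11639 CPM) and rno-miR-27a-3p (6224 ± 678 against 7476 CPM), of which rno-miR-27a-3p alone was lower in every NXT-Exo library than in Ctl-Exo 5 under TMM, and in 4 of 5 by the listed total. In the list as a whole 2 of 19 had that TMM order, against 15.3% of all miRNAs with reads. The second, rno-miR-223-3p (1460 ± 228 against 1948 CPM), kept it with DESeq2's size factors and the listed total.

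Since many cell types release miR-103 and miR-107 into blood, marker miRNAs of possible sources are given beside them. Those of platelets and white blood cells, 8 of 8 with reads, summed to 25133 to 29070 CPM in NXT-Exo against 30632 CPM in Ctl-Exo 5, so that Ctl-Exo 5 was above all NXT-Exo libraries under TMM. By the listed total NXT-Exo 4, the library with the highest TMM factor, passed it, at 31819 against 29758 CPM. rno-miR-142-5p made up most of the sum, at 16347 to 19635 CPM in NXT-Exo against 20887 CPM. Within that list 3 of 8 miRNAs had the TMM order, rno-miR-223-3p, rno-miR-142-5p and rno-miR-146a-5p, against 15.3% of all miRNAs with reads. By the listed total rno-miR-223-3p and rno-miR-146a-5p kept it and rno-miR-142-5p did not. Of the rest of the list, rno-miR-126a-3p was above Ctl-Exo 5 in 4 of 5 NXT-Exo libraries under TMM and rno-miR-155-5p in 1 of 5. rno-miR-126a-5p, rno-miR-142-3p and rno-miR-150-5p were above it in 2 of 5. The median log2 difference of the list was -0.22. Red blood cell markers (4 of 4 with reads) summed to 157715 to 260257 CPM and 210386 CPM, with Ctl-Exo 5 inside the range. Liver markers (5 of 6) summed to 10942 to 24428 CPM and 7640 CPM, with Ctl-Exo 5 below all NXT-Exo libraries. The share of all miRNAs with that order was not counted, and rno-miR-122-5p and rno-miR-192-5p made up nearly all of these sums. Of the others, rno-miR-194-5p was at 35.5 to 62.5 CPM in NXT-Exo against 44.1 CPM, and rno-miR-802-5p had 13, 0, 12, 3 and 2 reads in NXT-Exo against 0. None of these markers passed the test. Their part in the levels of rno-miR-103-3p and rno-miR-107-3p was not tested.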

How the data were processed

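Total RNA of serum exosomes was prepared with TruSeq Small RNA kits and sequenced on an Illumina HiSeq, and the authors filtered reads with ACGT101-miR to remove adapter dimers, junk, common RNA families and repeats. The genome build in the submitters' processing notes was Rnor 6.0. The aligner settings and the miRNA database release were not given in the sources used here. The deposited table held raw read counts per miRNA, which were used for every test, and TPM values computed by the authors, used as an alternative only, in which 0 reads were written as 0.01. A further 8 columns, named for Ctl-Exo 1 to 4 (counts and TPM of each), matched no sample record and were not used here.

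Counts were scaled with TMM factors and tested with edgeR 4.0.16 (glmQLFit and glmQLFTest, R 4.3.3), NXT-Exo 1 to 5 against Ctl-Exo 5, over the 865 miRNAs with at least 1 read, with Benjamini-Hochberg adjustment and a threshold of 0.05. With 1 Ctl-Exo library the spread comes from NXT-Exo alone. On simulated counts, an 8-fold change was recovered for 47.5% of 200 changed miRNAs, and for 69.0% where the average was 10 reads or more. No 2 libraries agreed within sampling noise (chi-square per degree of freedom at least 38.1 in 15 pairs). Levels were compared on log2(CPM + 1), which understates changes of rare miRNAs. Exact permutation tests used scipy 1.17.1. Shares and Ctl-Exo levels have Wilson intervals at 95%, which cover counting error only, since reads carried no molecular identifiers, and 3 reads served as the floor where a library held 0. Depth set a floor of 1.63 CPM in Ctl-Exo 5.

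Named miRNAs were the members, every sequence with their seed or with the letters AGCAGC (their first 6 bases) as bases 2 to 7, the miR-15 group, lists for metabolism, serum references and source cells, and the 5 of the most constant ratio to each member. The members and lists were chosen with earlier results of these data known. Mature and hairpin sequences came from RefSeq (GRCr8), which matched 2 of 2 listed members. Alternatives were DESeq2 1.42.0, its size factors, listed totals, deposited TPM, pseudocounts of 0.1 and 10, the median in place of the mean, a mean of at least 10 reads, longer forms added, and each NXT-Exo library left out. The order of groups in summed and listed miRNAs was also taken under each scaling, which was added after seeing the data.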

Additional observations from a re-analysis of the deposited data

Results flagged for a closer look

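Among 20 sets of values over the 5 NXT-Exo libraries (the pair, its related sequences and its shares), 5 held a library that stood apart from the others by Dixon's criterion (gap over range above 0.710). Chance flags about 1 in 20 such sets. These sets are not independent of each other.

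NXT-Exo 3 stood apart in 3 of them. Its miR-103-y level was 23.4 CPM against 11.1 CPM for the next library, its miR-107-y level 5.40 CPM against 2.33 CPM, and its longer forms made up 3.56% of the reads that begin with rno-miR-103-3p against 2.12%. Among 49 other rat miRNAs with at least 60 longer reads in all and mature reads in every library, NXT-Exo 3 had the highest share of longer forms for 17, Ctl-Exo 5 for 9 and the other 4 libraries for 2 to 8 each.

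The other 2 sets were of rare sequences. miR-424-x was at 11.2 CPM in NXT-Exo 5 against 0.782 CPM in the next library, and miR-16-x was at 0.602 CPM in NXT-Exo 2, below the next lowest value of 1.30 CPM.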

How the results depend on the processing

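The direction of both members held under every alternative run, each with the same Ctl-Exo 5. Under TMM Ctl-Exo 5 was above all 5 NXT-Exo libraries for both members. Leaving out a library, taking the median or changing the pseudocount could therefore hardly reverse the direction. The edgeR or DESeq2 log2 fold change was -0.22 to -0.12 for rno-miR-103-3p (adjusted p 0.811 to 0.982) and -0.33 to -0.23 for rno-miR-107-3p (adjusted p 0.805 to 0.982), 9 alternatives each. The difference of log2 levels was -0.22 to -0.12 and -0.33 to -0.22 over 11 alternatives each, deposited TPM included, which was added after seeing the data. The share of rno-miR-107-3p stayed lower in NXT-Exo, by -1.41 percentage points without NXT-Exo replicate 4 to -0.47 without NXT-Exo replicate 3. The share of longer forms, left out library by library after seeing the data, was higher by 0.466 percentage points without NXT-Exo replicate 3 and by 0.960 without NXT-Exo replicate 4.

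The number of miRNAs with an adjusted p under 0.05 was 0 to 1 when each NXT-Exo library was left out, the 1 being rno-miR-122-5p without NXT-Exo replicate 2, and the cause was not tested. The number at least 2-fold apart with Ctl-Exo 5 outside the NXT-Exo range was 99, and became 4 with a pseudocount of 10, 166 with no condition on the range, 30 where the average was 10 reads or more, and 101 to 123 when a library was left out. The pseudocount shrinks the differences of rare miRNAs and the filter tests fewer. No paired analysis was possible because NXT-Exo and Ctl-Exo share 1 replicate number only. The ratio of both miR-107 arms was not run, since rno-miR-107-5p was not listed. Ctl-Exo 5 could not be left out. Depth limits the rare sequences, with 1 to 6 reads in Ctl-Exo 5 for miR-103-z, miR-107-y and miR-103-x and 0 for rno-miR-15a-5p and miR-424-x.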

Other observations

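Marker miRNAs of 2 further sources were read beside the pair. Muscle markers (5 of 7 listed) summed to 113 to 173 CPM in NXT-Exo against 121 CPM in Ctl-Exo 5, and brain markers (5 of 5) to 27172 to 45992 CPM against 37416 CPM, so that Ctl-Exo 5 lay inside the NXT-Exo range for both sums under TMM, and below it for muscle by the listed total. The muscle markers went different ways. rno-miR-1-3p spanned 13.3 to 28.9 CPM in NXT-Exo, below the 33.8 CPM of Ctl-Exo 5. rno-miR-133a-3p (25.8 to 56.2 against 25.0 CPM) and rno-miR-133b-3p (11.7 to 17.2 against 7.08 CPM) were higher in all 5. Of all miRNAs with reads, 15.3% were lower in all 5 NXT-Exo libraries, and the share higher in all 5 was not counted. The brain sum was mostly rno-miR-128-3p, at 27132 to 45978 CPM in NXT-Exo against 37394 CPM, with the other 4 at 24.2 CPM or less. No marker of either list passed edgeR's test.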
